A study of Mus musculus with 3 samples.

Results

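A set of 40 named genes of blood vessel endothelium and of angiogenesis, the sprouting of new vessels, was followed in mouse gastrocnemius, a calf muscle, after tamoxifen was given to mice with a tamoxifen-controlled form of the kinase Akt. Every probe set whose only gene symbol in the platform annotation was 1 of these 40 was taken. That gave 76 of the 45037 probe sets left after the manufacturer's controls were set aside, and all 40 genes had at least 1. Ratios were taken only from probe sets with a mean percentile rank across arrays of at least 0.5. Of the 76, 68 passed, and all 40 genes kept at least 1 probe set, among 11092 genes compared in all.

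Per the labels, all mice were of strain C57BL/CD1 and of genotype Akt_Cre transgenic, and carried Akt joined to the oestrogen-binding domain in skeletal muscle alone. The promoter that drives the fusion, the role of Cre, and the age of the mice are not given in the sources used here. Treatment lasted 24 h with oil, 24 h with tamoxifen or 48 h with tamoxifen, with 1 Affymetrix mouse array for each group, and each array held RNA pooled from 3 to 4 mice. No 48 h oil array was analysed here, so time and treatment cannot be told apart at 48 h. The mice of all arrays carried the fusion, so other actions of tamoxifen cannot be told apart from those of Akt. No value below has a replicate error, and no test between groups was possible. The words higher and lower alone mark a ratio of at least 2-fold, and every smaller difference is given as a value only.

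Capillary endothelial cells line the vessels that run between muscle fibres. They are held together by junction proteins such as VE-cadherin and claudin 5, and are kept quiescent or made to sprout by secreted ligands of the VEGF, angiopoietin and apelin families, many of which come from the surrounding tissue. In muscle, fibres themselves are a major source of VEGF-A. In whole-muscle RNA, fewer endothelial cells and less RNA per endothelial cell cannot be told apart.

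The defining markers of endothelium were present on all 3 arrays. Intensities below are the authors' values scaled to a common median, on a linear scale, and each gene is read on the kept probe set that ranked highest on average. Pecam1, which encodes the endothelial adhesion protein CD31, read 209 (oil), 225 (24 h) and 162 (48 h). Claudin 5 (Cldn5) read 131, 123 and 142 in the same order, and Esam, another junction protein, read 317, 301 and 257. No kept probe set of the 40 genes stood at the floor of 4.05, the level below which readings were not ordered.

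Between tamoxifen and oil, most of the 40 genes stayed within 2-fold of oil. At 24 h, 1 of 40 was higher (Cd300lg) and 1 was lower (Vegfc), against 2.35% and 2.48% of all genes compared. At 48 h, 1 was higher (Cd300lg again) and 0 were lower, against 3.72% and 2.71% of all genes. These shares are at or near the background. How all genes split depended on scaling: unscaled, 3.27% were higher and 1.86% lower at 24 h, and 3.22% and 3.33% at 48 h, while quantile normalization gave 2.8% and 1.87% at 24 h. The set's median log2 ratio to oil was -0.06 at 24 h, where that of all genes was 0.04, and -0.30 at 48 h, where that of all genes was 0.01. Ratios below 0 were found for 22 of 40 genes at 24 h and 26 of 40 at 48 h, against 46.0% and 49.4% of all genes, and ratios above 0 for 18 and 14, against 54.0% and 50.6%. Both comparisons use the same oil array, so a low or high oil reading enters both.

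**Figure D1:**
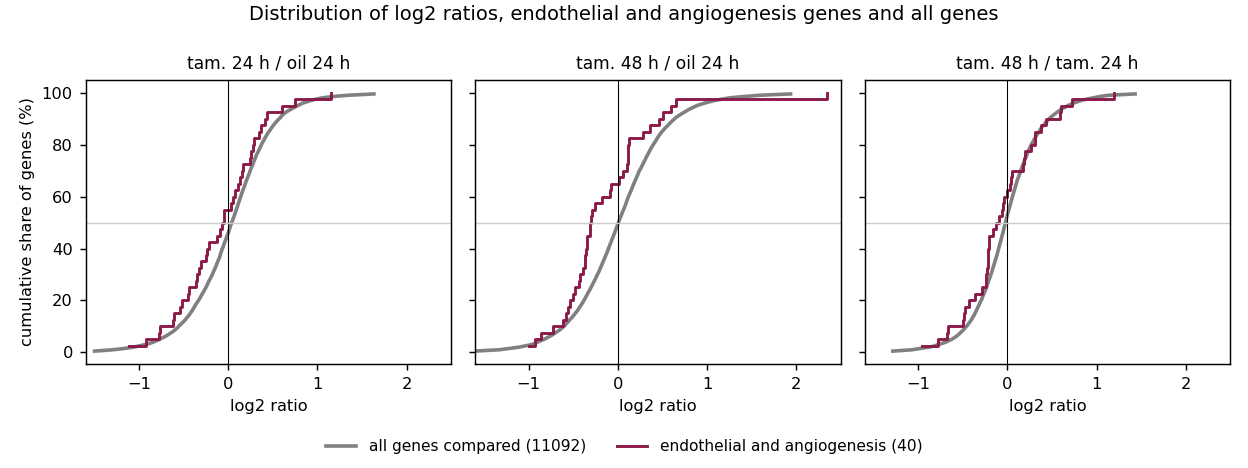
Cumulative share of genes (vertical axis, percent) by log2 ratio (horizontal axis) for the 40 endothelial and angiogenesis genes and for all 11092 genes compared, in each of the 3 comparisons. The set's curve lies left of the grey curve around its middle in the 48 h panel (medians -0.30 and 0.01), and Cd300lg is the step at 2.35.

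The position of each array tells the same values in another way. For 21 of the 40 genes the 48 h array gave the lowest reading of the 3, against 34.5% of all genes, and for 17 the oil array gave the highest, against 35.5%. The oil array was lowest for 9 (all genes 40.0%). The 24 h tamoxifen array was highest for 13 (32.5%) and lowest for 10 (25.4%), and the 48 h array was highest for 10 (32.1%). At a smaller size rule of 1.5-fold, chosen after the values were seen, 3 genes were above oil and 6 below it at 24 h, against 9.57% and 9.02% of all genes. At 48 h 3 were above and 6 below, against 11.7% and 10.7%.

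Among ligands, Vegfa and Vegfb read above oil at both times and Vegfc and Apln read below it. The 7 ligands had median log2 ratios of 0.16 at 24 h and -0.08 at 48 h. Vegfa encodes the main driver of endothelial growth. It read 265 (oil), 338 (24 h) and 418 (48 h), a ratio of 1.27-fold and then 1.58-fold. Its second kept probe set went the same way, from 93.7 on oil to 101 and 130. Vegfb, a ligand of VEGF receptor 1 linked to fatty acid handling in muscle, read 284, 376 and 428, or 1.33-fold and 1.51-fold the oil value. For both genes the 48 h array read highest, and neither reached 2-fold. In the other ways of processing that could be run (10 for Vegfa, 9 for Vegfb, whose sole probe set has a suffix), neither gene's ratio to oil changed sign at either time. The filter and floor settings among them could not move these ratios.

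Vegfc, better known as the growth factor of lymphatic vessels, read 72.7 (oil), 33.7 (24 h) and 51.2 (48 h). It was 2.16-fold lower at 24 h on this probe set, whose suffix (_x_at) marks probes that may also bind other transcripts. Its other kept probe sets had log2 ratios of -0.39 and 0.08 at 24 h, so the 24 h reading rests on 1 of 3 probe sets. With the mean of the 3 the ratio was -0.47, and without probe sets of such suffixes it was -0.39. At 48 h all 3 were below oil, from -0.51 to -0.24.

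Apln encodes apelin, a peptide released by sprouting endothelial cells and by muscle, and Aplnr encodes its receptor. Apln read 50.2 (oil), 26.5 (24 h) and 34.5 (48 h), log2 ratios of -0.92 and -0.54. Aplnr read 579, 378 and 386, log2 ratios of -0.62 and -0.59. Ligand and receptor thus both read highest on oil, within 2-fold. The second Aplnr probe set, dimmer, read 41.8, 43.1 and 34.0 and did not share the difference at 24 h.

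The angiopoietins and their receptors are a separate system that steadies vessels. Angpt1, the stabilising ligand, read 104 (oil), 134 (24 h) and 83.6 (48 h), and Angpt2, its context-dependent antagonist, read 27.1, 30.3 and 25.7. Tek, the angiopoietin receptor Tie2, read 246, 192 and 184, and Tie1, its partner, read 54.9, 66.4 and 41.8. Ptprb, a phosphatase that dampens Tie2, read 477, 486 and 421, and 322, 212 and 241 on its second kept probe set. At 48 h these 5 genes all read below oil, by log2 ratios from -0.42 (Tek) to -0.08 (Angpt2), the last of which changed sign under some alternatives. Over all genes 49.4% were below oil at 48 h. Between the tamoxifen arrays the log2 ratio of Angpt1 was -0.68 and that of Tie1 -0.67, short of 2-fold. Efnb2, the arterial ephrin ligand, read 72.6, 57.8 and 78.2, with its 3 kept probe sets split in sign at both times.

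The 10 receptors had median log2 ratios of 0.11 at 24 h and -0.15 at 48 h, and those for VEGF did not go one way. Kdr (VEGF receptor 2), the main signalling receptor for VEGF-A, read 75.9 (oil), 128 (24 h) and 105 (48 h), so both tamoxifen arrays were above oil, by 1.69-fold and 1.38-fold. Flt1 (VEGF receptor 1), a decoy for VEGF-A and the receptor for VEGF-B, read 139, 155 and 150, and its 4 kept probe sets spanned -0.53 to 0.16 at 24 h and -0.15 to 0.26 at 48 h. Nrp1, a co-receptor, read 550, 445 and 667. Of its 4 kept probe sets 1 was 2-fold below oil at 24 h (log2 -1.11, with readings of 63.0, 29.2 and 59.3), and the others lay between -0.31 and 0.30. Nrp2, which pairs with VEGF-C, read 56.7, 69.5 and 59.0, and its other kept probe sets had log2 ratios of -0.45 and 0.69 at 24 h.

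**Figure D2:**
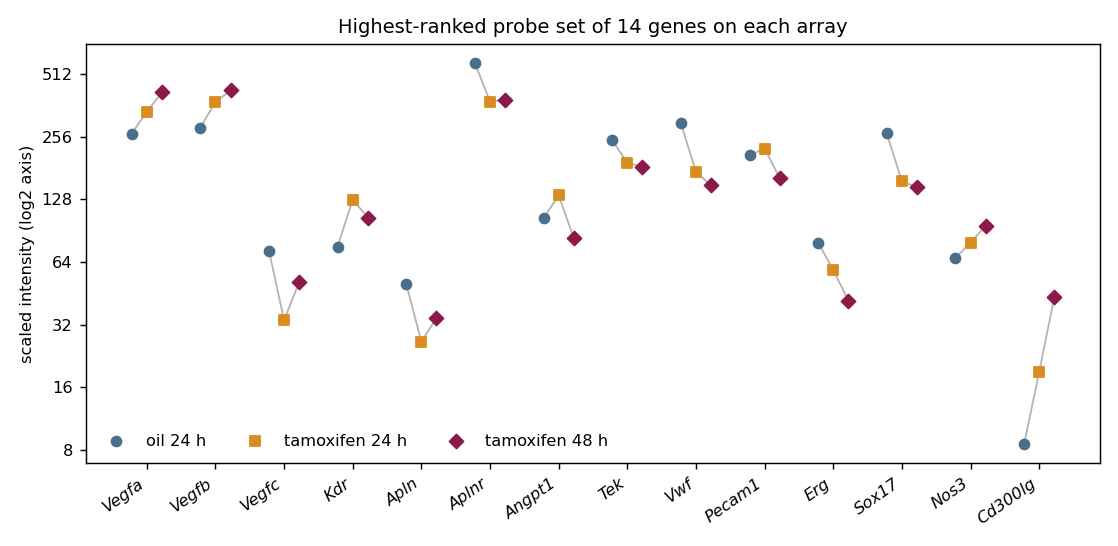
Scaled intensity (vertical axis, log2 scale) of the highest-ranked kept probe set of 14 genes on the oil 24 h, tamoxifen 24 h and tamoxifen 48 h arrays, with 1 array per group and therefore no error bars. Vegfa and Vegfb climb across the 3 arrays, Vwf, Erg and Sox17 descend, and Cd300lg goes from 8.54 to 43.5; levels of different genes are not comparable.

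Calcrl and Ramp2 together form the receptor for adrenomedullin, which keeps endothelial barriers tight. Calcrl read 172 (oil), 125 (24 h) and 112 (48 h), and Ramp2 read 292, 394 and 229. They went apart at 24 h (log2 -0.45 and 0.44) and were both below oil at 48 h (-0.61 and -0.35). A further pair of probe sets that the annotation gives to Ramp2 and Vps25 jointly was not used. Ednrb, an endothelin receptor, read 220, 229 and 283, and its other kept probe sets were below oil at 48 h.

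The upstream sequences of 4 genes are shown, picked as those with the largest 48 h ratios in each direction. Only genes with a listed promoter, and with kept probe sets that all lay on the same side of oil at both times, entered. Vegfb and Erg had 1 kept probe set each, so no second probe set could disagree. The sequences are those of Vegfa and Vegfb, above oil, and of Erg and Clec14a, below it. Each is the 250 bases before the gene's annotated start (the farthest upstream start where there are several), 5′ to 3′ on the minus strand, from RefSeq on GRCm38.p6. Capitals mark any match, on either strand, to the GC box GGGCGG, the core of hypoxia response elements ACGTG, the ETS-factor core AGGAAG or the forkhead motif GTAAACA.
Vegfa, chr17:46032378-46032627: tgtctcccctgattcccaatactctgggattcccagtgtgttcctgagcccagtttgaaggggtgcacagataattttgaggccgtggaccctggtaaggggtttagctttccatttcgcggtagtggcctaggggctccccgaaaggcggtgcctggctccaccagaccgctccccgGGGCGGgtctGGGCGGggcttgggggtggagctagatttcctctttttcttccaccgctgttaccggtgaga
Vegfb, chr19:6987652-6987901: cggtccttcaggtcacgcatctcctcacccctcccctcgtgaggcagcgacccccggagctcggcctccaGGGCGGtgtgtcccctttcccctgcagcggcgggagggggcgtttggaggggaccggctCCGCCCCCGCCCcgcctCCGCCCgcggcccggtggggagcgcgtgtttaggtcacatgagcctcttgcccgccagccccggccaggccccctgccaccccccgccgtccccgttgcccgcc
Erg, chr16:95586594-95586843: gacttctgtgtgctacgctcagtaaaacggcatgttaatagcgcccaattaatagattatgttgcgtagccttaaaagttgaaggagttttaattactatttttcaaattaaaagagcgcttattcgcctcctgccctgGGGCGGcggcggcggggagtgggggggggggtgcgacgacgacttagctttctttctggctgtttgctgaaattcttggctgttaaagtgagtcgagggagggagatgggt
Clec14a, chr12:58269259-58269508: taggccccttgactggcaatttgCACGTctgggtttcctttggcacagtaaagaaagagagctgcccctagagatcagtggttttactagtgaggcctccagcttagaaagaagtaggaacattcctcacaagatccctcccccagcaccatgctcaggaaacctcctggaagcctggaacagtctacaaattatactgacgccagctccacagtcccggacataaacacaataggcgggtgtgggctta
Vegfa has 2 matches to the GC box in its window and Vegfb has 4, with 1 in Erg and 0 in Clec14a. The 2nd listed Vegfa window, not shown, has 1 match to the hypoxia core and 1 to the GC box. Erg has 3 listed windows, and 1 not shown has a match to the ETS core. Of 22 genes of the set matched in the RefSeq promoter table (18 were not), 14 had a GC box in at least 1 window, and it occurred in 15 of their 28 windows (53.6%) and in 32.7% of the 32851 windows in the table. The ETS core was in 12 of the 28 windows (42.9%), against 29.5% of all, the hypoxia core in 3 (10.7%), against 16.6%, and the forkhead motif in 0, against 3.17%. The hypoxia core is also part of the E-box CACGTG. A match of letters is a description of the window and not a binding site.

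The 4 endothelial transcription factors read below oil at both times, except that the 24 h log2 ratio of Sox7 was -0.05 as scaled and 0.05 unscaled. Over all genes 46.0% were below oil at 24 h and 49.4% at 48 h. Erg, an ETS factor that maintains endothelial identity, read 79.4 (oil), 58.6 (24 h) and 41.8 (48 h), a log2 ratio of -0.93 at 48 h. Sox17, an arterial factor, read 266, 156 and 147 (log2 -0.77 and -0.86), and its second kept probe set read 65.5, 57.1 and 45.5. The related factors were nearer to oil. Sox18 read 182, 153 and 153, and Sox7 read 98.3, 95.2 and 92.5. None reached 2-fold. The median of the 4 was -0.34 at 24 h and -0.56 at 48 h.

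Of 17 surface, junction and enzyme genes of endothelium, 0 were 2-fold different at either time, and 13 read below oil at 48 h, with a median of -0.35. Over all genes at 48 h, 3.72% were higher, 2.71% lower and 49.4% below 0. Vwf, which encodes the clotting protein von Willebrand factor, read 298, 174 and 149. Its 48 h log2 ratio of -0.9957 fell just short of 2-fold, and was past it with unscaled values (-1.06), after quantile normalization (-1.06) and after loess (-1.04). Vwf also stands in a list of platelet genes, of which Pf4 read 323, 280 and 281 and Itga2b read 22.5, 27.6 and 29.0. Clec14a, a sprouting-associated surface lectin, read 87.2, 74.2 and 52.5, and its second probe set was likewise below oil at both times. Emcn, a mucin-like protein of capillaries and veins, read 234, 184 and 159.

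Mmrn2, a matrix partner of Clec14a, read 328, 229 and 235 on its highest-ranked probe set, while another of its 4 read 58.2, 78.4 and 100. Plvap, the diaphragm protein of fenestrated vessels, read 216, 148 and 167. Cav1, the coat protein of caveolae that adipocytes and other cells also make, read 2244, 1933 and 1657. Icam2, an adhesion protein, read 99.6, 91.1 and 78.4, and Robo4, a guidance receptor that limits leakage, read 65.6, 68.9 and 53.8. Egfl7, a secreted endothelial factor, read 214, 234 and 174, and all 4 of its probe sets were below oil at 48 h (-0.57 to -0.09). On their highest-ranked probe sets these genes all read below oil at 48 h, none by 2-fold.

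The remaining genes of the group differed in order. Cd34, a surface marker of endothelium and of some progenitors, read 327, 316 and 329. Nos3, the endothelial nitric oxide synthase that Akt is known to phosphorylate, read 67.1, 79.4 and 95.6, so it was above oil at both times and within 2-fold. Eng, a TGF-beta co-receptor, read 225, 147 and 243 on its highest-ranked probe set and 98.7, 63.1 and 74.0 on the other. Cdh5, which encodes VE-cadherin, read 81.0, 123 and 63.2, and its second kept probe set read 16.9, 11.4 and 15.7. Both Cdh5 probe sets were below oil at 48 h (-0.36 and -0.11), and they had opposite signs at 24 h.

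**Figure D3:**
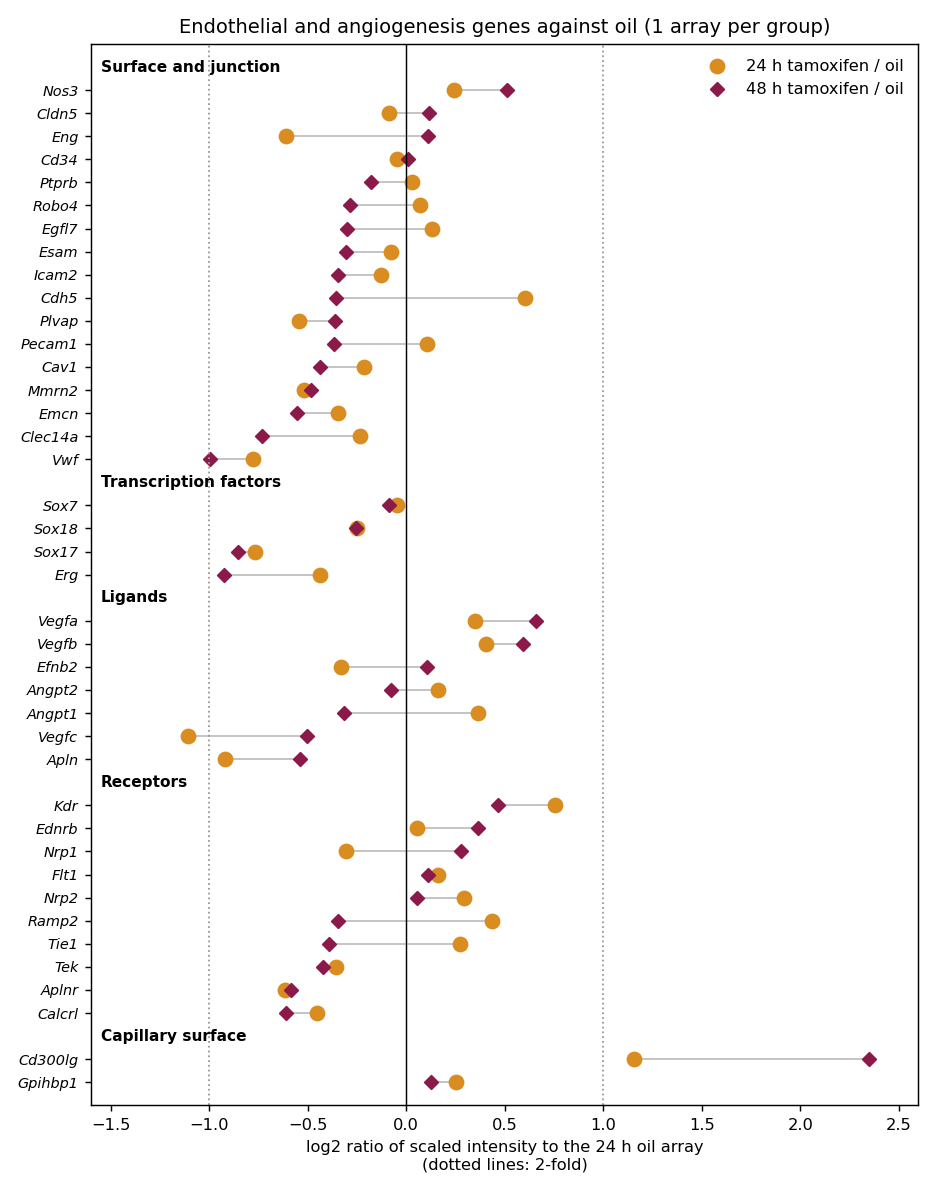
Log2 ratio to the oil array (horizontal axis) of the 40 genes, by role, at 24 h (circles) and 48 h (diamonds) of tamoxifen, with dotted lines at 2-fold. Diamonds of most surface genes and of all 4 transcription factors lie left of 0, those of Vegfa, Vegfb, Kdr and Nos3 lie right of it, and Cd300lg alone passes 2-fold at 48 h.

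Cd300lg was the only 1 of the 40 past 2-fold in more than 1 comparison. It encodes nepmucin, a glycoprotein of capillary endothelium. It read 8.54 (oil), 19.0 (24 h) and 43.5 (48 h), 2.23-fold and 5.10-fold higher than oil, and 2.29-fold higher at 48 h than at 24 h. It has 1 probe set, and its percentile rank was 0.369 on oil, 0.572 at 24 h and 0.688 at 48 h. It therefore passed the filter through the tamoxifen arrays, and its ratios start from a dim reading. With a floor at the 50th percentile its 24 h log2 ratio was 0.43. Gpihbp1, which carries lipoprotein lipase across capillaries, read 399, 475 and 436.

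In the comparison of the tamoxifen arrays, 1 of 40 genes was higher at 48 h (Cd300lg) and 0 were lower, against 1.8% and 1.42% of all genes. At 1.5-fold 4 were above and 4 below, against 6.91% and 5.84%, and 25 genes had ratios below 0, against 53.1%, and 15 above it, against 46.9%. Unscaled, 0.929% of all genes were higher and 2.24% lower. Cdh5 came nearest to 2-fold below, at a log2 ratio of -0.96, and was past it with unscaled values (-1.11), where the median of all genes was -0.18. The second Cdh5 probe set went the other way (0.46), and the mean of both was -0.25. Ramp2 followed at -0.78, and Eng (0.73) and Nrp1 (0.59) lay on the other side. Vegfc was at 0.60 on its highest-ranked probe set and at -0.03 and -0.32 on the others. The set's median was -0.11, and that of all genes -0.02.

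Of the 40 genes, 16 had 2 or more kept probe sets, and these served as a technical yardstick only. All kept probe sets of a gene had the same sign in 5 of the 16 at 24 h and in 9 at 48 h. Within a gene the standard deviation of log2 ratios was 0.44 at 24 h and 0.28 at 48 h for these genes, against 0.49 and 0.41 over 5001 genes. Over the 68 kept probe sets counted singly, 39 were below oil at 24 h and 48 at 48 h, against 48.4% and 50.2% of 19362 probe sets with 1 gene.

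**Figure D4:**
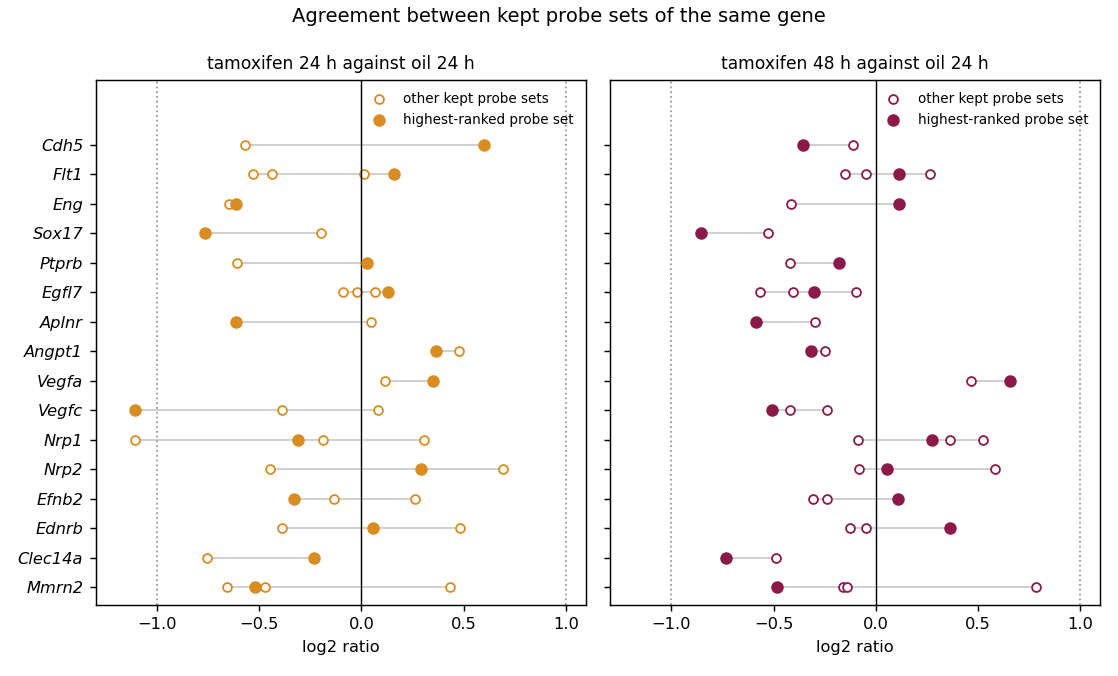
Log2 ratios to oil (horizontal axis) of every kept probe set of the 16 genes that had 2 or more, with the highest-ranked filled, at 24 h and 48 h. Probe sets straddle 0 in 11 of 16 genes at 24 h and in 7 at 48 h; Vegfa lies above 0, and Sox17 and Clec14a below, in both panels.

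Other endothelial genes were listed from general knowledge. Of 23 compared, 0 were 2-fold different at 24 h, against 2.35% higher and 2.48% lower over all genes. At 48 h 1 was, against 3.72% and 2.71%, and the medians were -0.11 and -0.14. The 1 was Rgcc, a cell cycle regulator found in capillary endothelium but also in other cells, at 493, 579 and 1748 (3.55-fold higher at 48 h, with its other probe set also above oil). Among 11 arterial, venous and Notch genes, Notch4, an endothelial Notch receptor, was 2.27-fold higher at 24 h (48.3, 110 and 91.8) on its sole kept probe set. Nr2f2, the venous factor, was 2.32-fold lower at 24 h (121, 52.2 and 92.4), with its 4 probe sets of mixed sign. The medians of that list were -0.03 and -0.02.

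Among 12 other angiogenic factors, Angptl4, a lipoprotein lipase inhibitor that also acts on vessels, was 6.62-fold higher at 48 h (28.3, 46.7 and 187), and Tgfb1 was 2.05-fold higher (28.5, 53.7 and 58.2). Of 9 angiogenesis inhibitors, Sema3f, a ligand of Nrp2, was 7.69-fold and 6.19-fold higher (11.6, 88.9 and 71.5, from a dim oil reading). The medians were -0.12 and -0.07 for the angiogenic factors and -0.01 and 0.01 for the inhibitors. None of 11 oxygen-sensing genes and Vegfa regulators was 2-fold different (medians 0.16 and -0.05). Over all genes 2.35% were higher and 2.48% lower at 24 h, and 3.72% and 2.71% at 48 h. Hif1a, the oxygen-regulated factor that drives Vegfa, read 458, 334 and 319, and its 3 kept probe sets spanned -0.46 to 0.03 at 24 h. Ppargc1a, a coactivator that can induce Vegfa in muscle, read 151, 166 and 133 on a probe set with the suffix _x_at. The 5 kept probe sets of Ppargc1a spanned -0.23 to 0.23 at 24 h and -0.19 to 0.71 at 48 h. Esrra, the partner of Ppargc1a, read 244, 311 and 356.

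Markers of other cell types are set beside these values. Of 12 markers of pericytes and vascular smooth muscle, which wrap vessels, 11 read below oil at 24 h and 9 at 48 h. Over all genes 46.0% and 49.4% were below oil. The medians of the 12 markers were -0.26 and -0.37. Their summed reading on the 24 h and 48 h arrays was 78.9% and 79.2% of that on oil. Acta2, smooth muscle actin, read 1553, 788 and 892, and Myh11, smooth muscle myosin, read 155, 94.5 and 74.8 (2.07-fold lower at 48 h). Above oil stood 1 of the 12 at 24 h and 3 at 48 h, among them Mcam at both times (67.3, 84.3 and 84.8). The summed reading of the 40 genes was 91.5% of oil at 24 h and 87.6% at 48 h, and that of the 17 surface genes 87.8% and 79.0%. Such sums weigh bright genes most. Cav1 alone gave 2244 of the 5620 summed on oil for the 17 genes, and of the 9913 for the 40. Fibroblast markers stood at 89.3% and 88.8% (9 genes), with medians of -0.18 and -0.29. At 48 h 7 of the 9 read below oil and 2 above it. Of the 9, Col1a1 was 2.26-fold higher at 48 h on the highest-ranked of 2 kept probe sets. The dimmer Col1a1 probe set lay 0.13 above oil in log2, so the 2-fold reading rests on 1 of 2. Macrophage markers stood at 101% and 81.0% (8 genes, with Cd163 2.10-fold lower at 48 h). At 48 h 6 of these 8 were below oil and 2 above it, Cd68 (log2 0.58) and Mrc1 (0.11).

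The 8 myofibre markers stood at 96.3% and 99.8%, on their highest-ranked probe sets. Other kept probe sets of some of them differed more. In log2 these reached 0.89 at 24 h and 1.5 at 48 h for Myh1, and 0.52 and 0.69 for Ckm. For Myh4 they went down to -0.68 and -0.37. Of 5 lymphatic markers, 0 were 2-fold different from oil (medians -0.21 and 0.25). Among all genes 2.35% were higher and 2.48% lower at 24 h, and 3.72% and 2.71% at 48 h. Prox1, the defining factor of lymphatic endothelium, had no kept probe set. Of 3 adipocyte markers Cidec was 2.15-fold higher at 24 h and Retn 2.04-fold lower at 48 h. The 3 Schwann cell markers stood at 97.9% and 90.4%, the 3 platelet markers, Vwf included, at 74.8% and 71.5%, and the sole red blood cell marker compared, Alas2, read 39.1, 35.7 and 38.4. The part of these other cells in the endothelial values was not tested.

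**Figure D5:**
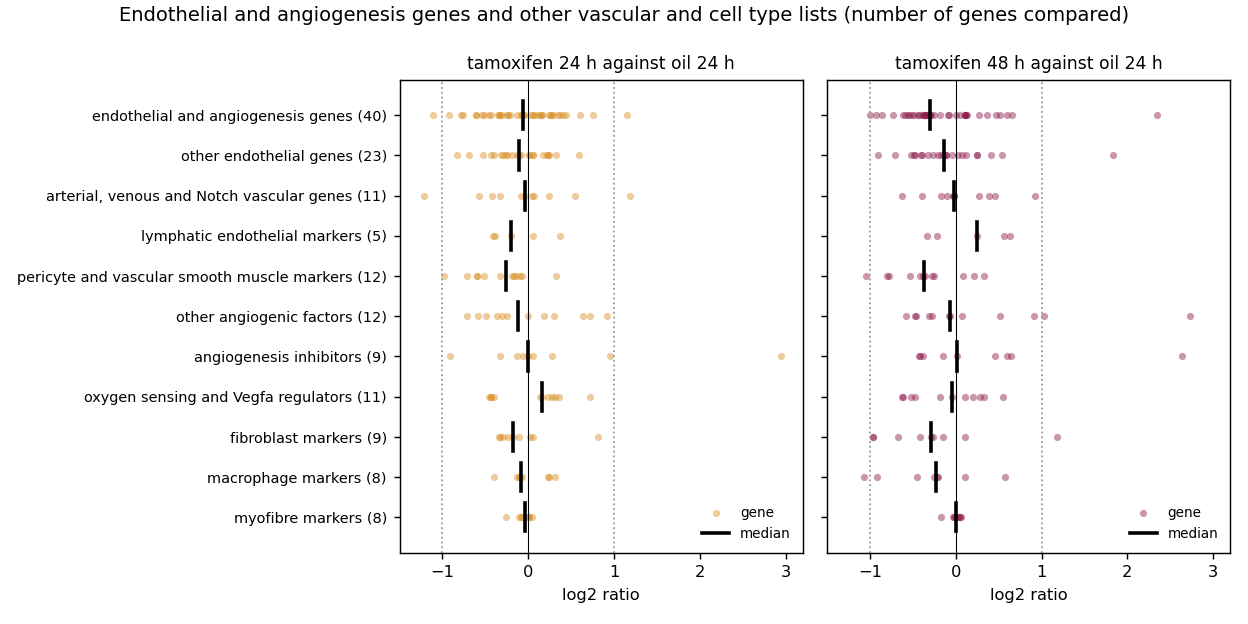
Log2 ratios to oil (horizontal axis) of each gene (points) and the median (black bars) for the 40 endothelial and angiogenesis genes and 10 other lists, at 24 h and 48 h. The medians at 48 h are -0.30 for the 40 genes and -0.37 for pericyte and smooth muscle markers. They are -0.29 for fibroblast, -0.23 for macrophage and 0.01 for myofibre markers.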

How the data were processed

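RNA of 3 pooled samples was measured on 1 array each. Each probe set has 1 deposited value per array, a linear-scale intensity, which per the labels the authors made from Affymetrix arrays; the background correction, summary method and scaling are not given in the sources used here; detection calls were not used here. The number of arrays limits the precision.

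After 64 controls were set aside, 34945 probe sets had 1 gene in the platform annotation, 932 had several and 9160 were not listed; symbols were updated through Entrez identifiers to RefSeq (GRCm38.p6). Scaling set equal medians over the probe sets of mean rank 0.5 or more (factors 1.01, 0.944 and 1.05 for oil, 24 h and 48 h), a floor of 4.05 (25th percentile) was set, and log2 was taken (Python 3.11.15, pandas 2.3.3; statsmodels 0.14.6 for loess). A gene was read on the kept probe set that ranked highest on average. No p-value was computed.

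All 40 genes were named, with up to 3 genes of each other list that were 2-fold different with kept probe sets of 1 sign; Nr2f2, Acta2 and the genes named within 2-fold were chosen after their values were seen. The genes and lists were chosen with earlier results of these data known, and the motifs after the sequences were seen. The steps were tested on simulated data. Results were recomputed in 10 other ways (scaling, filter, floor, choice of probe set) and in 2 chosen after seeing the data (a 1.5-fold rule, probe sets counted singly).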

Additional observations from a re-analysis of the deposited data

How the results depend on the processing

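With 1 array per group, no array could be left out, and no paired analysis was possible because each group has 1 sample. Of 1152 ratios of single genes recomputed in the 10 other ways of processing, 1144 stayed on their side of 2-fold, 4 dropped within it, 4 went past it and 0 past 2-fold changed sign. Many of these ratios could not change, because the filter settings keep a gene's highest-ranked probe set and the floors alter only dim readings. The same limit holds for the counts of signs below. All 10 ways could be run for 24 genes and 9 for 16. The sign of the 48 h ratio held in every one run for 34 of 40 genes. It changed for Angpt2, Cd34, Efnb2, Eng and Nrp2, and the ratio of Mmrn2 was 0.0 with the mean of its probe sets. The sign of the 24 h ratio held for 32 and changed for Aplnr, Cd34, Cldn5, Ednrb, Esam, Flt1, Ptprb and Sox7. The set's median ranged from -0.15 to 0.03 at 24 h, from -0.37 to -0.22 at 48 h and from -0.26 to -0.04 between the tamoxifen arrays. Measured from the median of all genes, the difference was -0.17 to -0.06 at 24 h and -0.35 to -0.23 at 48 h.

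Without scaling, the median of all genes was 0.13 at 24 h and -0.18 between the tamoxifen arrays, where the set's median was -0.26 and 1 gene (Cdh5) was lower. At 48 h 1 gene (Vwf) was lower than oil unscaled, 1 after quantile normalization and 1 after loess, where 3.33%, 2.88% and 2.52% of all genes were lower. After loess 0 were higher at 48 h than at 24 h, against 1.35% of all genes. With the filter at rank 0.75, which left 32 of the genes and not Cd300lg or Vegfc, 0 were higher or lower at 24 h. Of all genes so filtered, 1.7% were higher and 0.991% lower at 24 h. With that filter 0 were higher at 48 h or between the tamoxifen arrays, against 3.03% and 0.784%. With the floor at the 50th percentile 0 were higher at 24 h, against 2.12% of all genes. With the mean of all kept probe sets, or without suffixed probe sets, 0 were lower at 24 h, against 2.41% and 2.64%. At 1.5-fold, added later, counts higher and lower were 3 and 6 at 24 h, 3 and 6 at 48 h and 4 and 4 between the tamoxifen arrays.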
